A study of Mus musculus with 2 samples.

Results

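The small structural RNA genes described here are the non-coding RNAs that serve as guides, scaffolds or catalytic cores of ribonucleoprotein particles. They were picked by gene symbol (the Snora, Snord, Scarna, Rnu and Rn7s families, with Rmrp, Rpph1, Terc and Mir1949) and by level. A row was kept when it reached 1 TPM (transcript abundance per length, scaled to a fixed library total) in at least 1 of the 2 libraries, and is then called measured. Of 183 rows with such a symbol, 29 were measured, out of 12968 measured genes with a symbol in the whole data set. A further 153 rows were listed at 0 in both libraries. Terc, the telomerase RNA, fell just outside the threshold with 0.75 TPM in shETV4 cells and was listed at 0 in shRFP cells. The members nearest to the threshold on its other side were Scarna2, at 2.38 TPM in shETV4 cells and 0.42 TPM in shRFP cells, and Scarna6, at 2.66 TPM in shETV4 cells and listed at 0 in shRFP cells. Because the members were selected on their TPM in these same libraries, the levels and differences given for them are a description.

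The data are RNA-seq profiles of LPC-HRas cells, a mouse line whose labels give liver as its tissue and hepatocellular carcinoma as its cell type. One group received a lentiviral short hairpin against the transcription factor Etv4 (shETV4) and the other a control hairpin against RFP, a red fluorescent protein (shRFP), and the question was what the knockdown changes in gene expression. Each of the 2 groups is 1 library, so no spread between replicates, error or test can be given for any value. The line carries HRas by its name in both groups, and the sources used here do not say whether the cells were clones or pools or how long after infection they were taken. Etv4 itself was at 16.2 TPM in the shETV4 library and 73.24 TPM in the shRFP library, 4.52-fold lower with the hairpin. None of 10 hepatocyte markers reached 1 TPM, among them Alb, which was listed at 0 in both libraries, and the markers' summed level was 0.51 TPM in shETV4 cells and 0.33 TPM in shRFP cells. Of 7 leukocyte markers none was measured either, with sums of 0.45 and 0.85 TPM in shETV4 and shRFP cells. Of 7 endothelial and fibroblast markers 3 were measured and stayed within 2-fold, led by Col1a1 at 229.41 TPM in shETV4 cells and 200.4 TPM in shRFP cells.

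Small nucleolar RNAs (snoRNAs) direct chemical modification and cleavage of ribosomal RNA. The H/ACA class guides pseudouridylation and the C/D class guides 2′-O-methylation, while their relatives in the Cajal body act on spliceosomal RNAs. Most mammalian snoRNAs are cut out of the introns of host genes, whereas U3, the spliceosomal snRNAs, 7SK, the RNA of the signal recognition particle (SRP), and the RNAs of RNase P and RNase MRP have promoters of their own. These RNAs mostly lack a poly(A) tail, so the values below depend on how a library was prepared, and the sources used here do not say whether these were selected for poly(A) or depleted of ribosomal RNA.

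Sequences are shown first for the members on which the description turns, as RNA-strand sequences written with T, taken from the GENCODE M21 transcripts on GRCm38. All 9 measured H/ACA members had ACA within their last 6 bases, the defining ACA box of the class. That trinucleotide was found there in 66.7% of 441 other snoRNA records of similar length and in 6.23% of 2570 records of similar length that are no small RNA. The hinge box is usually written ANANNA, which is loose enough to occur in 93.7% of the other snoRNA records and 96.1% of the others, so it separates nothing here. Motifs were searched on the transcript strand only, and a match is a description of letters, not of a bound protein. The first 3 sequences below were listed at 0 in shETV4 cells and the last 2 were listed at 0 in shRFP cells. Capitals mark the run of overlapping ANANNA matches nearest the middle and the terminal ACA.
Snora17: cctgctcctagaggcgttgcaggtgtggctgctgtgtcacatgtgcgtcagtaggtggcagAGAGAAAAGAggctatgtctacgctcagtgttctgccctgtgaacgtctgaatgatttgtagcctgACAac
Snora34: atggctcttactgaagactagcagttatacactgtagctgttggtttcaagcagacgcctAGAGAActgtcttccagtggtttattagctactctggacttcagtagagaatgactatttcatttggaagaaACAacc
Snora16a: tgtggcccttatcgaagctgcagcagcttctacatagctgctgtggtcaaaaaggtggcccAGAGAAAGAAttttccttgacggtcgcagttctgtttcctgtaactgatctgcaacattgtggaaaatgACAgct
Snora64: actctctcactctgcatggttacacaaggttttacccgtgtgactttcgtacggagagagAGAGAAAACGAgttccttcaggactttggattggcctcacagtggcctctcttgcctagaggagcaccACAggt
Snora5c: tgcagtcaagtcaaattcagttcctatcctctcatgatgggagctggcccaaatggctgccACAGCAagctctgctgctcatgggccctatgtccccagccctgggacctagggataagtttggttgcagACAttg

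Snora73a and Snora73b are neighbouring copies of the U17 (E1) snoRNA, an H/ACA member that takes part in cleavage of the ribosomal RNA precursor and is not known for guiding pseudouridylation. They are shown because they are nearly the same RNA and differed in opposite directions. Both have 205 bases, with 7 differing positions and 96.6% identity, and 248 bases lie between them on chromosome 4. Written as the Snora73a base, the position from the 5′ end and the Snora73b base, the substitutions were G3A, G54A, A111G, T164C, G203A, T204A and T205A. Capitals mark these positions.
Snora73a: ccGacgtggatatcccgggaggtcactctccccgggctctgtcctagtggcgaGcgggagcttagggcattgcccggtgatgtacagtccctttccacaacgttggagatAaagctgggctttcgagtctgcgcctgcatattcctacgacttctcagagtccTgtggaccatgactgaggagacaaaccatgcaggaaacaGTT
Snora73b: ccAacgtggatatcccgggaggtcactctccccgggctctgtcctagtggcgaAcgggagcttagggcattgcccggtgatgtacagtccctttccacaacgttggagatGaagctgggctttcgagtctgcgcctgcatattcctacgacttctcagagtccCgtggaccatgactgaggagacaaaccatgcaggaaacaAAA

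Rnu3a and the Rnu3b copies encode U3, the C/D-type RNA that pairs with the ribosomal RNA precursor and is needed for its early cleavages. Rnu3a and Rnu3b1 were 85.6% identical, and Rnu3b1, Rnu3b2, Rnu3b3 and Rnu3b4 had the same 215 bases. TGATGA, the core of the C box, was in 6 of 6 C/D members, in 5.9% of the other snoRNA records and in 12.2% of records that are no small RNA. CTGA, the D box, is short and was in 73.5% and 73.3% of those records. Capitals mark TGATGA and the last CTGA.
Rnu3a: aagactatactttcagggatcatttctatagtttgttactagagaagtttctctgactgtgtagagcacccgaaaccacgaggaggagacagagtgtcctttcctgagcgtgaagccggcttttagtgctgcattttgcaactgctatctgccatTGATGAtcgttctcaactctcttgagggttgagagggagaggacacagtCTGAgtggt
Rnu3b1: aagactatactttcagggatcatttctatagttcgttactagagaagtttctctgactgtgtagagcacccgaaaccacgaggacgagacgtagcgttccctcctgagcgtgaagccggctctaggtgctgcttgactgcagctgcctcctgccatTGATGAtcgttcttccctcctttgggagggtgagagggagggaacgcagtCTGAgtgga

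The 3 measured spliceosomal RNAs are U12, U2 and a U1 variant. U1 recognises the 5′ splice site, U2 pairs with the branch point, and U12 does the work of U2 in the minor spliceosome. ATTTNTG, a spelling of the site on which the ring of Sm proteins assembles, was in 3 of 3, in 46.2% of 264 other snRNA records and in 7.67% of records that are no small RNA. Capitals mark it.
Rnu12: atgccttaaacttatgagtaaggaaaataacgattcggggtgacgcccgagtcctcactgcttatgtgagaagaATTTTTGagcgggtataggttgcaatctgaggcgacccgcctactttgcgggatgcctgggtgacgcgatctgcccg
Rnu2-10: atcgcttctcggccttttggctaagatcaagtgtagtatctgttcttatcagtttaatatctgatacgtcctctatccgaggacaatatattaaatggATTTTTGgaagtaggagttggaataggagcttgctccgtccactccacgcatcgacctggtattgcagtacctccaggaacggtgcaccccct
Rnu1b2: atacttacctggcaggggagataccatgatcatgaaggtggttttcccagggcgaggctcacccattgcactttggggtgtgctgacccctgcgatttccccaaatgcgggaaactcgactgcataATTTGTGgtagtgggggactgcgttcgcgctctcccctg

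Rn7s1 and Rn7s2 are copies of 7SL, the RNA of the signal recognition particle, and had the same 300 bases. The third record of the family, Rn7s6, has 291 bases, was listed at 0 in both libraries and is 85.1% identical to Rn7s1. Rmrp, the RNA of RNase MRP, had 2 records over the same stretch of chromosome 4. Capitals in Rmrp mark the bases of the 281-base record that lie outside the 271-base record, at both ends.
Rmrp: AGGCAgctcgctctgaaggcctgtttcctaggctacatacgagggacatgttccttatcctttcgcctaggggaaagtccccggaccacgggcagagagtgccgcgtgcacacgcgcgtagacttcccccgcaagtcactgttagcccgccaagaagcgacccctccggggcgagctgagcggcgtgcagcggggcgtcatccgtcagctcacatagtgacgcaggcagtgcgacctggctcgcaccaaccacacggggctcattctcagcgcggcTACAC

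Over all 29 members the picture was one of higher values with shETV4, with a group of H/ACA snoRNAs going the other way. The difference used throughout is log2(shETV4 TPM + 1) minus log2(shRFP TPM + 1), and a member is called higher or lower when it differs by 2-fold or more on that scale. By this measure 22 of 29 members were called higher with shETV4, where 3.39% of all measured genes were, and 4 were called lower, where 7.06% of all measured genes were. The other 3 lay within 2-fold. Some rows of a class have the same values, and with such rows counted once 18 members were called higher and 4 lower. The sum given below counts every row. The median difference over the members was 2.36, against -0.10 over all measured genes, and the members ranged from -5.89 to 5.95. Summed over the members, the level was 2160.84 TPM in shETV4 cells and 302.05 TPM in shRFP cells, 7.15-fold higher and equal to 0.216% of the library's TPM in shETV4 cells and 0.0302% in shRFP cells. The members were chosen by level in these libraries, and nothing is read from the distance between their shares and those of all genes.

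Many of the differences were between a value and a 0. There were 11 members listed at 0 in shRFP cells only, as were 0.948% of all measured genes, and 3 members listed at 0 in shETV4 cells only, as were 0.825% of all measured genes. The 15 members above 0 in both libraries included the most abundant ones of shETV4 cells, while the 3 most abundant ones of shRFP cells were listed at 0 in shETV4 cells. Rows of RNAs that every cell uses were among those listed at 0. The rows Rnu1b2, Rnu2-10 and Rnu12 had no value in shRFP cells. The rows Rnu6, Rnu5g, Rnu11 and Rnu7 had none in either library. Some clone-named snRNA records did have shRFP values: Gm23444, Gm23472 and Gm24497, with the same 191 bases of length as Rnu2-10, each had 3.11 TPM there. A 0 is therefore given here as a listed value, with no fold change and no statement that the RNA was absent. The deposited values hold no read counts, so the depth behind them is unknown.

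**Figure D1:**
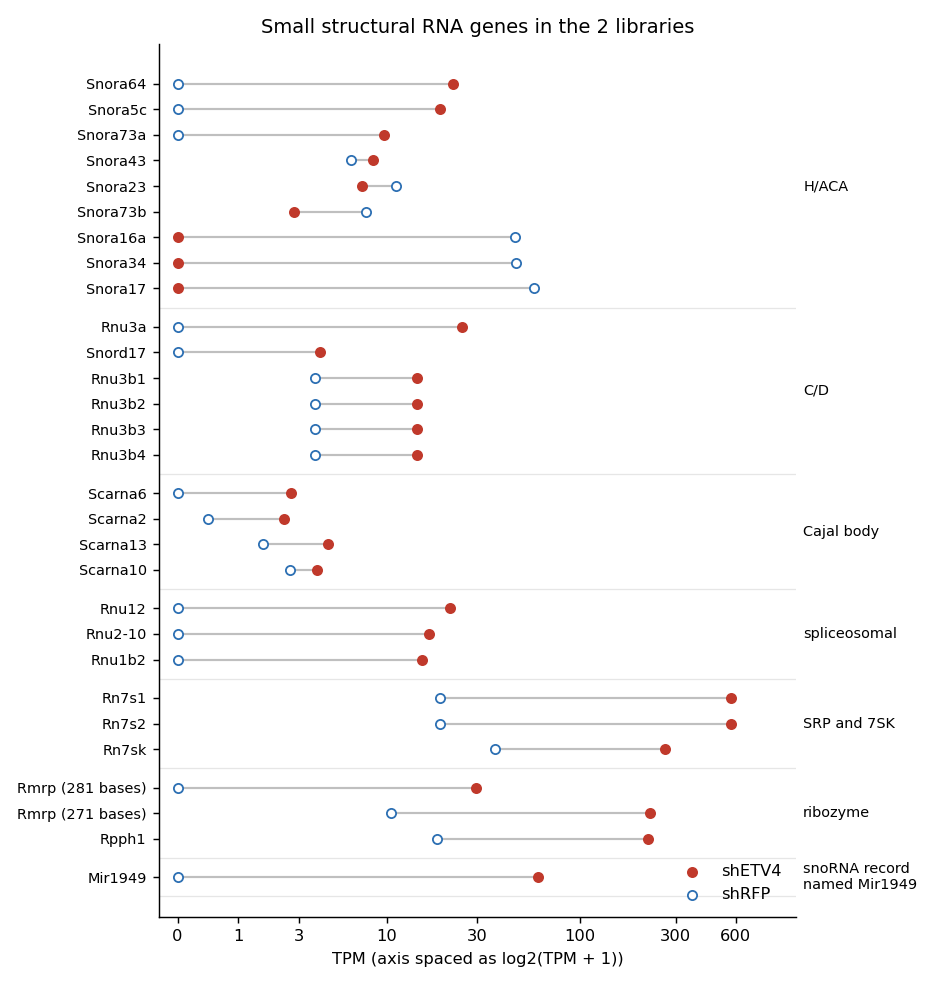
TPM of each of the 29 measured small structural RNA genes in the shETV4 library (filled red points) and the shRFP library (open blue points), 1 library per group, on an axis spaced as log2(TPM + 1) and grouped by class. A reader should see the filled points to the right in every class but H/ACA, where Snora16a, Snora34 and Snora17 sit at 0 in shETV4 cells.

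The H/ACA snoRNAs were the class with members in both directions. Of 42 H/ACA rows, 9 were measured: 3 were called higher, 4 lower and 2 lay within 2-fold. Their summed level was 69.7 TPM in shETV4 cells and 177.63 TPM in shRFP cells, and their median difference was -0.57. Snora17 was listed at 0 in shETV4 cells and stood at 58.44 TPM in shRFP cells, a difference of -5.89 that was the lowest among the members. Snora34 was likewise listed at 0 in shETV4 cells, against 47.22 TPM in shRFP cells (difference -5.59). Snora16a was listed at 0 in shETV4 cells, against 46.66 TPM in shRFP cells (difference -5.57). These 3 had the highest shRFP values of any member, at 132, 138 and 136 bases of length. Snora64 and Snora5c, of 134 and 136 bases, had the opposite pattern. Snora64 was at 22.36 TPM in shETV4 cells and listed at 0 in shRFP cells (difference 4.55). Snora5c was at 19.29 TPM in shETV4 cells and listed at 0 in shRFP cells (difference 4.34).

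The near-identical neighbours Snora73a and Snora73b, shown above, also split. Snora73a was at 9.65 TPM in shETV4 cells and listed at 0 in shRFP cells (difference 3.41). Snora73b was at 2.78 TPM in shETV4 cells and 7.71 TPM in shRFP cells, 2.77-fold lower with shETV4 (difference -1.20). How the authors' quantification divided reads between copies that differ at 7 of 205 positions is not known, so the separate values of this pair are uncertain. Both copies lie entirely in exons of other genes when either strand is counted. On their own strand, 77.6% of Snora73a but 0% of Snora73b lies in exons of Snhg3. Snhg3 was at 97.81 TPM in shETV4 cells and 91.79 TPM in shRFP cells. The part of this unequal overlap in the 2 values was not tested. Summing the class hides both directions, and the call of Snora73b was lost with a pseudocount of 5, where its difference was -0.71.

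Snora43 and Snora23 lay within 2-fold. Snora43 was at 8.34 TPM in shETV4 cells and 6.33 TPM in shRFP cells (difference 0.35), although it lies only 1204 bases from Snora17 on the minus strand of chromosome 2. The sequences of Snora43 and Snora17 are 67.1% identical. Snora23 was at 7.28 TPM in shETV4 cells and 11.27 TPM in shRFP cells, 1.55-fold lower with shETV4 (difference -0.57). In GRCm38 coordinates Snora43 spans chr2:26637847-26637985 and Snora17 spans chr2:26639190-26639321, and neither shares an exonic base with another annotated gene. Others of the class do share bases: Snora64 (chr17:24720772-24720905, plus strand) lies entirely in exons of Rps2, and 93.4% of Snora5c (chr11:6620319-6620454, minus strand) lies in exons of Tbrg4. Snora16a (chr4:132309465-132309600, plus strand) lies entirely in exonic sequence of Snhg12, and 66.7% of Snora34 (chr15:98519716-98519853, minus strand) is shared with a record for Mir1291. With rows left out that share 50% or more of their bases in this way on either strand, 0 H/ACA members were called higher and 1, Snora17, was called lower.

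The C/D snoRNAs were all higher. Of 110 C/D rows, 6 were measured and 6 were called higher, with a summed level of 87.44 TPM in shETV4 cells and 15.4 TPM in shRFP cells, 5.68-fold higher. Rnu3a (chr10:40258467-40258679, plus strand) was at 25.11 TPM in shETV4 cells and listed at 0 in shRFP cells (difference 4.71). Rnu3b1, Rnu3b2, Rnu3b3 and Rnu3b4 each had 14.55 TPM in shETV4 cells and 3.85 TPM in shRFP cells, 3.78-fold higher (difference 1.68). Since these 4 rows have the same sequence and the same values, they give 1 distinct pair of values, and the class has 3. Snord17, a guide for 28S ribosomal RNA, was at 4.13 TPM in shETV4 cells and listed at 0 in shRFP cells (difference 2.36, and 0.87 with a pseudocount of 5). Every measured C/D row had at least 213 bases, which is long for the class: 96 of 110 C/D rows were shorter than 132 bases.

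The small Cajal body RNAs had the lowest summed level of the classes in shETV4 cells, with single values between 2.38 and 4.62 TPM there. Of 9 rows 4 were measured and 3 were called higher, and their summed level was 13.6 TPM in shETV4 cells and 4.68 TPM in shRFP cells, 2.91-fold higher. Scarna6 was at 2.66 TPM in shETV4 cells and listed at 0 in shRFP cells (difference 1.87). Scarna2, known in human cells as a guide for U2, was at 2.38 TPM in shETV4 cells and 0.42 TPM in shRFP cells, 5.67-fold higher (difference 1.25). Scarna13 was at 4.62 TPM in shETV4 cells and 1.65 TPM in shRFP cells, 2.80-fold higher (difference 1.08). Scarna10, known in human cells as a guide for U5, was within 2-fold at 3.94 TPM in shETV4 cells and 2.61 TPM in shRFP cells (difference 0.45). Of Scarna10, 87.1% lies in same-strand exons of other genes, and 72.9% lies in exons of Ncapd2. Ncapd2 was at 213.74 TPM in shETV4 cells and 211.09 TPM in shRFP cells, and how reads were divided between them is not known. The calls of this class depend on the pseudocount: with a pseudocount of 5, 0 members of the class were called.

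The measured spliceosomal rows had values in shETV4 cells only. Of 11 rows 3 were measured, summing to 53.78 TPM in shETV4 cells and listed at 0 in shRFP cells. Rnu12 (chr15:83149644-83149794, plus strand) was at 21.57 TPM in shETV4 cells (difference 4.50). Rnu2-10 (chr11:101658238-101658428, plus strand) was at 16.79 TPM in shETV4 cells (difference 4.15). Rnu1b2 (chr3:96374021-96374185, plus strand) was at 15.42 TPM in shETV4 cells (difference 4.04). None of these 3 shares an exonic base with another annotated gene, but U1 and U2 have many near-identical copies in the genome, among which the reads may have been divided. The clone-named snRNA records Gm23849, Gm23971 and Gm24950 have the 191 bases of length of Rnu2-10. They had 16.79, 16.8 and 16.8 TPM in shETV4 cells and were listed at 0 in shRFP cells. Their sequences were not compared with Rnu2-10, and they count among the clone-named records described below. The other 8 rows of the class, with Rnu7, the U7 RNA that processes histone messages, counted here by its symbol, were listed at 0 in both libraries.

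The RNAs of the signal recognition particle and of the 7SK particle were the most abundant members in shETV4 cells and held most of the summed level there, but not in shRFP cells, where the H/ACA class had the larger sum. The particle that contains 7SL directs ribosomes making secreted and membrane proteins to the endoplasmic reticulum, and 7SK holds the transcription elongation factor P-TEFb inactive. The 3 measured rows of 4 summed to 1405.09 TPM in shETV4 cells and 75.24 TPM in shRFP cells, 18.7-fold higher. Rn7s1 (chr12:69159295-69159594, plus strand) and Rn7s2 (chr12:69361182-69361481, minus strand) each had 569.68 TPM in shETV4 cells and 19.22 TPM in shRFP cells, 29.6-fold higher (difference 4.82). These rows hold the same sequence and the same values, so they too give 1 distinct pair of values. Of each row, 49% of the exonic bases lie in same-strand exons of genes with another symbol. Both rows were therefore kept where rows sharing 50% or more were left out. Rn7sk (chr9:78175303-78175633, minus strand), which shares no exonic base with another gene, was at 265.73 TPM in shETV4 cells and 36.8 TPM in shRFP cells, 7.22-fold higher (difference 2.82). Without the SRP RNA rows the members made up 0.102% of the TPM in shETV4 cells and 0.0264% in shRFP cells.

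The catalytic RNAs were higher in all 3 rows, summing to 470.26 TPM in shETV4 cells and 29.1 TPM in shRFP cells, 16.2-fold higher. RNase MRP cleaves the ribosomal RNA precursor, and RNase P trims the 5′ end of transfer RNA precursors. The 271-base record of Rmrp (chr4:43492788-43493058, minus strand) was at 222.36 TPM in shETV4 cells and 10.51 TPM in shRFP cells, 21.2-fold higher (difference 4.28). The 281-base record (chr4:43492783-43493063, minus strand), which the annotation types as a lincRNA and which contains the shorter one, was at 29.5 TPM in shETV4 cells and listed at 0 in shRFP cells (difference 4.93). Rpph1 (chr14:50807449-50807767, minus strand), the RNA of RNase P, was at 218.4 TPM in shETV4 cells and 18.59 TPM in shRFP cells, 11.7-fold higher (difference 3.49). Of Rpph1, 73.0% overlaps exons of Ccnb1ip1 on the same strand, which was itself listed at 0 in both libraries. Both Rmrp records overlap Ccdc107 on the opposite strand, by 45.8% of the shorter and 44.1% of the longer one, and the sources used here name no strand setting for the quantification.

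Several symbols had a second record at the same place, and only 1 of the pair carried the value. The 213-base Rnu3a record held 25.11 TPM in shETV4 cells while the 214-base record was listed at 0 in both libraries. For Snora16a the 136-base record held the 46.66 TPM of the shRFP library and the 137-base record was listed at 0 in both. Each Rnu3b record of 215 bases had a partner of 216 bases that was listed at 0 in both libraries, and the 127-base record of Snora43 was listed at 0 beside the 139-base one. Rmrp was the exception among these pairs, with a value in both of its records in shETV4 cells.

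The measured rows were longer than the others on the median, with overlap. The shortest measured member had 132 bases, and 0 of the 120 rows shorter than that had any value in either library. Of the 62 rows at or above that length, 29 were measured. The median length was 215 bases for the measured rows and 94 bases for the others. This cut was set by the measured members themselves, and 33 rows above it were not measured. Over all other genes with a symbol, 8 of 5062 genes shorter than 132 bases were measured, which is 0.158%, against 4.13% of 3703 genes from 132 to 300 bases and 27.6% of 46194 longer genes. Calls were also frequent among the other short genes in both directions. Of the 153 measured genes from 132 to 300 bases that were no members, 43.8% were called higher and 32.7% were called lower, 37.3% were listed at 0 in shRFP cells only and 24.8% in shETV4 cells only, and their median difference was 0.41. These 153 genes still included clone-named snoRNA, scaRNA and snRNA records, a set described below. Of the 27 measured records of that set, some of which have equal values, 25 were called higher and 0 lower. Part of the 43.8% called higher is therefore theirs. Among the 25 members of 300 bases or less, 76% were called higher and 16% were called lower, with a median difference of 2.36. The part of transcript length in these differences was not tested.

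**Figure D2:**
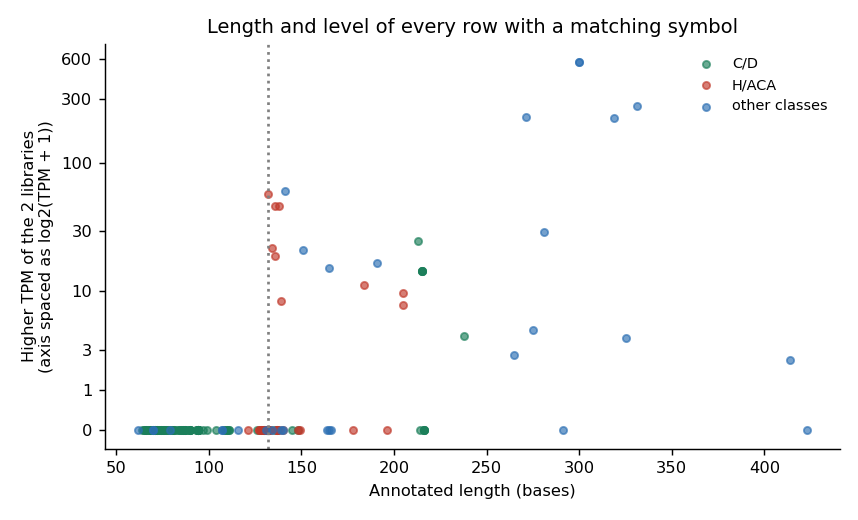
Annotated length in bases (x axis) against the higher of the 2 libraries' TPM (y axis, spaced as log2(TPM + 1)) for every annotated row with a matching symbol, coloured by class, with a dotted line at the shortest measured length of 132 bases. All 120 rows to the left of the line are at 0, and so are many of the rows to its right.

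Host genes gave a second reading from the same stretch of the genome. There were 16 members that lie inside another gene on the same strand, 12 of them in a gene that was itself measured, and these 12 members had 12 distinct measured hosts by symbol. Among the 12 members, 7 were called higher and 3 lower. Among the 12 hosts, 0 were called higher, 2 lower and 10 lay within 2-fold. Over all measured genes 3.39% were called higher and 7.06% lower. Snhg12, the host of Snora16a, was at 59.44 TPM in shETV4 cells and 50.49 TPM in shRFP cells. Kansl2, in which Snora34 lies, was at 116.87 TPM in shETV4 cells and 111.05 TPM in shRFP cells. Both hosts lay within 2-fold, while their snoRNAs were listed at 0 in shETV4 cells.

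Most hosts of snoRNAs called higher also lay within 2-fold. Rps2, a ribosomal protein gene that contains Snora64, was at 6570.65 TPM in shETV4 cells and 6121.51 TPM in shRFP cells. Tbrg4, with Snora5c, was at 85.83 TPM in shETV4 cells and 90 TPM in shRFP cells. Snhg3, the non-coding host that contains both Snora73 copies, was at 97.81 TPM in shETV4 cells and 91.79 TPM in shRFP cells. The hosts called lower were Snx5, with Snord17 in it, at 64.27 TPM in shETV4 cells and 143.09 TPM in shRFP cells, and Ipo7, with Snora23 in it, at 11.19 TPM in shETV4 cells and 34.84 TPM in shRFP cells. Snord17 and its host differed in opposite directions, by 2.36 and -1.14. Where a snoRNA lies in a host's exons, reads of the host message can be counted for either, and how they were divided is not known.

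**Figure D3:**
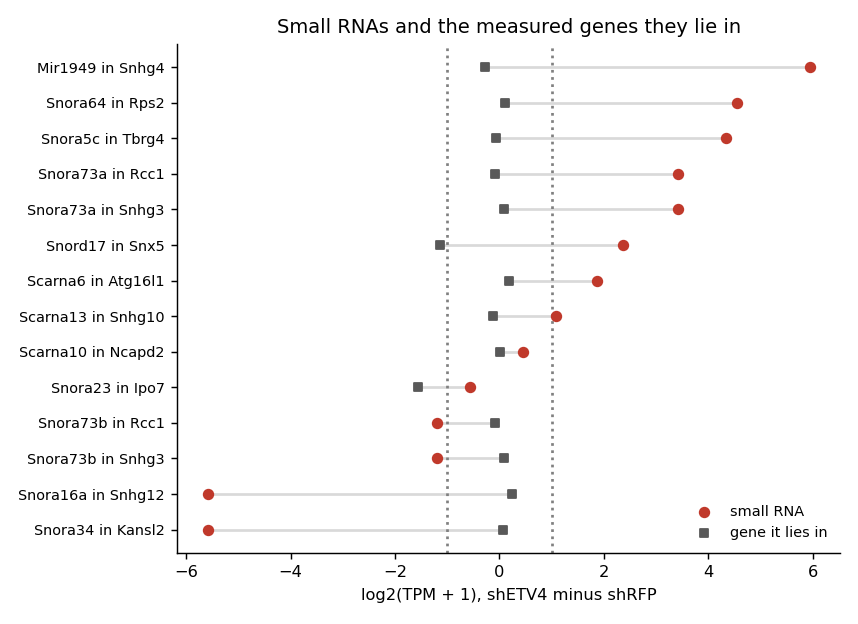
Difference in log2(TPM + 1), shETV4 minus shRFP, for 12 small RNAs (red circles) and for the measured gene each lies in on the same strand (grey squares), 1 row per pair, with dotted lines at 2-fold. The hosts lie between the dotted lines apart from Ipo7 and Snx5, while 10 of the small RNAs lie outside them.

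Small RNA records outside the named set were looked at for comparison. These are records annotated as snoRNA, scaRNA or snRNA under clone-style names, of which 27 were measured. Of these, 25 were called higher and 0 lower, where 3.39% and 7.06% of all measured genes were. There were 21 of them listed at 0 in shRFP cells only. Several of the 27 have the same length and the same values, so they give fewer than 27 distinct pairs of values. Gm23444, Gm23472 and Gm24497, of 191 bases, each had 13.44 TPM in shETV4 cells and 3.11 TPM in shRFP cells. Gm23804 and Gm25679, of 164 bases, each had 81.31 TPM in shETV4 cells and were listed at 0 in shRFP cells. The counts and sums here include each of them. The 27 records had a median difference of 4.86 and a sum of 1946.71 TPM in shETV4 cells and 48.87 TPM in shRFP cells. The snRNA records made up most of that sum in shETV4 cells but not in shRFP cells, at 1481.24 TPM in shETV4 cells and 9.33 TPM in shRFP cells, and all 15 were called higher. Gm24265, an snRNA record of 141 bases, was at 567.04 TPM in shETV4 cells and listed at 0 in shRFP cells. Gm25890, of 165 bases, was at 169.86 TPM in shETV4 cells and listed at 0 in shRFP cells. The 10 measured snoRNA records included 9 called higher, such as Gm22988 at 135.69 TPM in shETV4 cells and 32.48 TPM in shRFP cells. Snora17, Snora34 and Snora16a had no counterpart among these 27 records, none of which was called lower.

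Other non-coding records had calls in both directions, where 3.39% of all measured genes were called higher and 7.06% lower. Of 13 measured records typed as misc_RNA outside the named set, 2 were called higher and 9 lower, with a median difference of -1.55 and a sum of 454.35 TPM in shETV4 cells and 985.66 TPM in shRFP cells. Of 10 measured miRNA records, 4 were called higher and 3 lower. The only measured record typed as rRNA, CT010467.1, was called higher, at 5557.66 TPM in shETV4 cells and 2173.03 TPM in shRFP cells. Among clustered histone genes, whose messages also lack a poly(A) tail, 45 of 64 were measured, with 8 called higher, 4 lower and a median difference of 0.21. Malat1, a nuclear non-coding RNA, was at 25.45 TPM in shETV4 cells and 38.58 TPM in shRFP cells, and Neat1 was at 29.58 TPM in shETV4 cells and 40.04 TPM in shRFP cells. The histone genes and this pair were chosen after the data were seen, and the part in the result of the rRNA record, the histone genes and these RNAs was not tested.

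**Figure D4:**
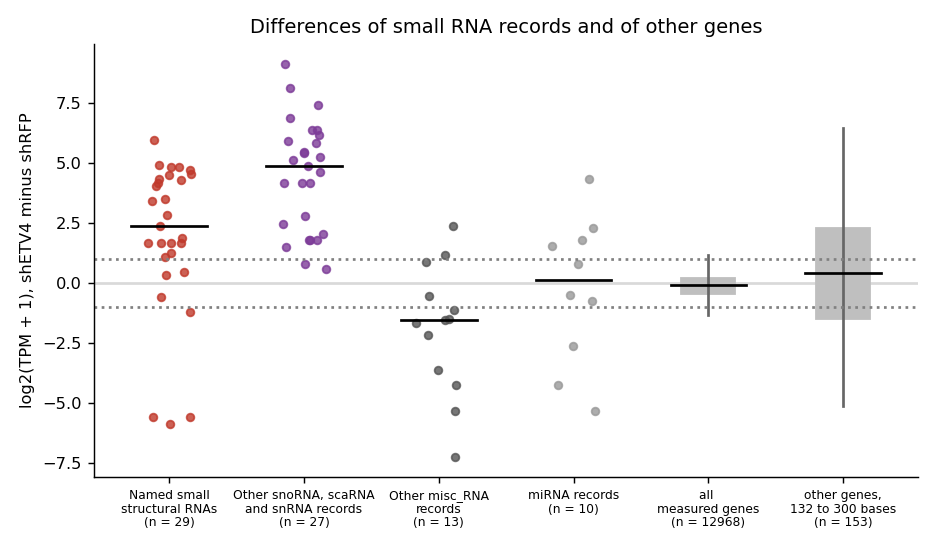
Difference in log2(TPM + 1), shETV4 minus shRFP, for the 29 named members, for 27 other snoRNA, scaRNA and snRNA records, for 13 other misc_RNA records and for 10 miRNA records (points, with the median as a black line), beside all 12968 measured genes and the 153 other genes from 132 to 300 bases (box from the 25th to the 75th percentile, whisker over all but the lowest and highest 2.5%, median as a black line). The members' median is 2.36 and that of all genes is -0.10, and the short genes spread widely in both directions. The 153 short genes include small RNA records that are also drawn as points. Rows with equal values are drawn as separate points.

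The base composition of the members was close to that of all genes except in the classes most abundant in shETV4 cells. The GC content of the members ranged from 41.3% to 67.1%, with a median of 52.6% against 50.7% for all measured genes. It was highest in the ribozyme class, with a median of 64.2%, and in the SRP and 7SK class, with a median of 62.3%, the classes with the highest TPM in shETV4 cells. The part of base composition in the differences was not tested.

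Proteins that bind, process or transport these RNAs were followed through 11 lists. Across the lists 159 distinct genes were measured: 0 were called higher and 10 lower, which is 6.29% against the 7.06% called lower among all genes, and 149 lay within 2-fold. The median difference was -0.21, and 114 of the 159 were below 0. No list median lay above 0: the medians ran from -0.49 for the proteins and receptor of the signal recognition particle to -0.06 for the Sm and LSm proteins.

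Among the snoRNP proteins, 0 of 7 H/ACA proteins (median -0.22) and 1 of 12 C/D proteins (median -0.20) were called lower. Nhp2, a core H/ACA protein, was at 344.02 TPM in shETV4 cells and 381.87 TPM in shRFP cells. Nop56, a core C/D protein, was at 376.85 TPM in shETV4 cells and 460.08 TPM in shRFP cells. Its partner in the same core, Nop58, was called lower, at 64.7 TPM in shETV4 cells and 146.57 TPM in shRFP cells. In the Cajal body and telomerase list (median -0.17) 1 of 13 was called lower, which was Tgs1, the enzyme that hypermethylates the cap of snRNAs and snoRNAs, at 4.79 TPM in shETV4 cells and 11.33 TPM in shRFP cells. Nolc1, a nucleolar and Cajal body phosphoprotein, was the most abundant of that list at 150.87 TPM in shETV4 cells and 181.64 TPM in shRFP cells.

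The spliceosomal partners lay within 2-fold with 1 exception. Of 17 Sm and LSm proteins 0 were called, and Snrpb was at 519.55 TPM in shETV4 cells and 512.23 TPM in shRFP cells. Of 25 proteins specific to single snRNPs (median -0.14) 1 was called lower, Sf3b1, a branch point factor of U2, at 28.84 TPM in shETV4 cells and 66.68 TPM in shRFP cells, while the U1 protein Snrpc was at 389.63 TPM in shETV4 cells and 396.17 TPM in shRFP cells. None of 10 proteins of the signal recognition particle and its receptor was called, and Srp14 was at 177.1 TPM in shETV4 cells and 167.7 TPM in shRFP cells. None of 7 proteins of the 7SK particle was called (median -0.29), and Cdk9, the kinase of P-TEFb, was at 119.36 TPM in shETV4 cells and 115.91 TPM in shRFP cells. None of 11 proteins of RNase P and RNase MRP was called (median -0.14), and Pop5 was at 74.71 TPM in shETV4 cells and 71.63 TPM in shRFP cells.

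The factors that transcribe, trim and move small RNAs held the other calls. In these 3 lists 13.6%, 11.8% and 10.5% of the genes were called lower, where 7.06% of all measured genes were. Each of these shares rests on 2 or 3 genes. Of 22 promoter factors and RNA polymerase III genes 3 were called lower, with a median of -0.31. They were Ssb, the La protein that binds the ends of new polymerase III transcripts, at 34.36 TPM in shETV4 cells and 91.23 TPM in shRFP cells, Bdp1, an initiation factor of that polymerase, at 1.51 TPM in shETV4 cells and 5.28 TPM in shRFP cells, and Pou2f1, which binds snRNA gene promoters, at 1.38 TPM in shETV4 cells and 5.95 TPM in shRFP cells. Maf1, a repressor of polymerase III, had the highest level in that list and lay within 2-fold at 233.21 TPM in shETV4 cells and 157 TPM in shRFP cells. Of 17 Integrator and export genes (median -0.31) 2 were called lower, namely the export receptor Xpo1, at 21.29 TPM in shETV4 cells and 60.95 TPM in shRFP cells, and Ints8, at 9.79 TPM in shETV4 cells and 20.76 TPM in shRFP cells. The cap-binding protein Ncbp1, the most abundant of them, was within 2-fold at 67.26 TPM in shETV4 cells and 94.15 TPM in shRFP cells. Of 19 genes of the RNA exosome and small RNA trimming (median -0.23) 2 were called lower, namely Dis3, a nuclease of the exosome, at 13.91 TPM in shETV4 cells and 32.77 TPM in shRFP cells, and its helicase partner Mtrex, at 17.07 TPM in shETV4 cells and 39.15 TPM in shRFP cells. Exosc8, a subunit of the exosome, had the highest single value of that list and lay within 2-fold at 74.61 TPM in shETV4 cells and 107.26 TPM in shRFP cells. With a pseudocount of 5, Tgs1, Bdp1, Pou2f1, Ints8 and Dis3 were no longer called, and at 3-fold 0 genes of the lists were called lower. With the trimmed mean of log ratios divided out, Tgs1 and 1 of the 2 Integrator and export genes were no longer called.

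**Figure D5:**
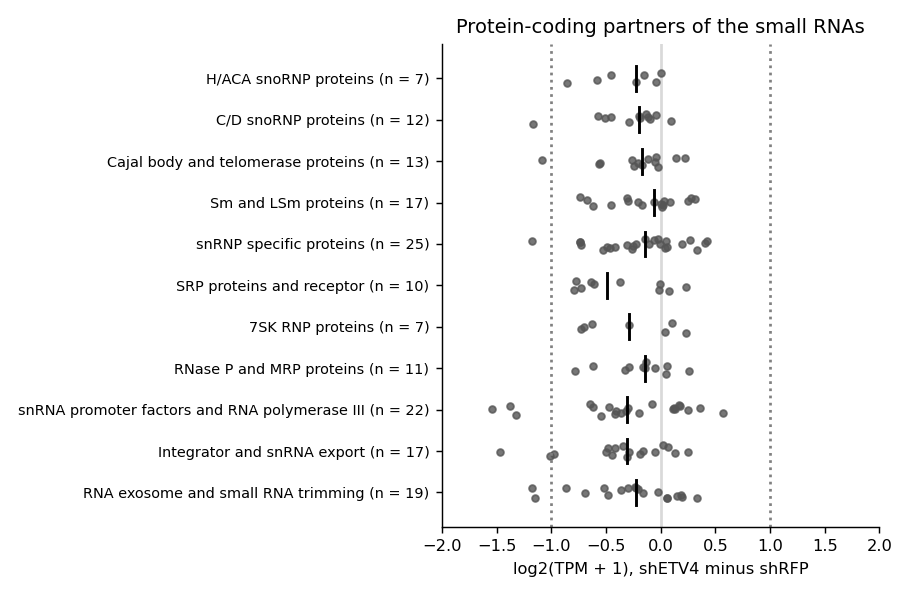
Difference in log2(TPM + 1), shETV4 minus shRFP, of the measured genes in 11 lists of proteins that bind, transcribe, process or export the small RNAs (points, 1 per gene, with the list median as a black bar), with dotted lines at 2-fold. No gene lies past the line for higher values with shETV4, and 10 lie past the line for lower values.

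The record named Mir1949 was kept by its symbol and is described last, since it belongs to none of the classes above. The annotation types its 141-base record as a snoRNA and nests a 70-base miRNA record within it. The longer record (chr18:35554492-35554632, plus strand) was at 60.97 TPM in shETV4 cells and listed at 0 in shRFP cells, a difference of 5.95 that was the highest among the members, and the miRNA record was listed at 0 in both libraries. The longer record lies entirely in exonic sequence of the non-coding host Snhg4, which was at 18.63 TPM in shETV4 cells and 22.7 TPM in shRFP cells. The value of the longer record is not a measure of a mature miRNA.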

How the data were processed

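Total RNA was extracted with TRIzol and made into libraries with a TruSeq RNA kit, per the labels' protocols. There is 1 library per group, assigned by its treatment label. The deposited values are TPM per gene with 2 decimals, made by the authors; the unit was read from the totals (999870.3 in shETV4 and 999999.77 in shRFP), since the headers name none. Both value columns carry the suffix _2, whose meaning the sources used here do not state. The submitters' processing notes list HISAT2, RSEM and GRCm38.p4, with no version or order. TPM is relative to length and to the library's own total, and it keeps no depth. The files held 55640 records, and 153 without a symbol were left out of lists and counts; these held 2.67% of the TPM in shETV4 and 1.13% in shRFP.

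Differences used a pseudocount of 1 and calls used 2-fold on that scale. GENCODE M21 on GRCm38 gave coordinates, lengths and sequences for 182 of the 183 matching rows; the record of Terc with a value is not in it. The sequence of the SRP RNA is not reported here. Identity was counted over global alignments (Biopython 1.88). Python 3.11.15, numpy 2.4.6, pandas 2.3.3 and matplotlib 3.10.9 were used. The calling step was run on simulated data with planted changes and little noise. Those data held no value of 0, so the run checks the arithmetic only and not the calls of members listed at 0 in 1 library. Any row found may be named; values are given for up to 8 members per class with the largest differences in each direction, up to 4 nearest to 0, members listed at 0 in 1 library, and, from each protein list, up to 4 called genes in each direction and the most abundant one. The members and lists were chosen with earlier results of these data known. Snhg3, Rps2 and the other hosts, and the clone-named records, were named after their values were seen.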

Additional observations from a re-analysis of the deposited data

How the results depend on the processing

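The members called higher numbered 22 as reported and 17 to 22 under the alternatives in pseudocount, scale, filter, fold and rows kept. The members called lower numbered 4 as reported and 3 or 4, except 1 without rows that share 50% or more of their exonic bases with another gene. Removing the filter could not change these numbers, since rows below 1 TPM in both libraries cannot reach 2-fold with a pseudocount of 1. No member changed direction, but these settings could not have shown such a change. A pseudocount cannot alter the sign of a difference. The rescalings divided out log2 shifts of -0.07 and -0.13, smaller in size than the member difference nearest to 0, which was 0.35 for Snora43. With a pseudocount of 5, 5 members were no longer called: Scarna6 was at 0.62, Scarna2 at 0.45 and Scarna13 at 0.53, beside Snord17 and Snora73b. The members' median difference was 2.36 as reported, 3.55 with a pseudocount of 0.1, 1.14 with 5, 3.45 at 5 TPM or more, 0 with no filter, 2.41 with the median ratio set to 1, 2.46 with the trimmed mean divided out, 2.82 with equal rows counted once and 2.12 without the sharing rows. The members' share of TPM was 0.155% in shETV4 and 0.0271% in shRFP with equal rows counted once, and 0.102% in shETV4 and 0.0264% in shRFP without the SRP RNA rows.

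All measured genes gave 439 higher and 916 lower. These were 1121 and 2593 at 1.5-fold, 162 and 162 at 3-fold, 676 and 1461 with a pseudocount of 0.1, 167 and 267 with a pseudocount of 5, and 71 and 50 over short genes that are no members. Those short genes include clone-named small RNA records. The number higher was 252 at 5 TPM or more and 250 over protein-coding genes. Of all calls 32.4% were higher as reported and 45.1% with the trimmed mean divided out (537 and 655), which moves the median of all genes by 0.13 in log2; the 22 and 4 member calls were unchanged in number.

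Of 140 class counts 133 stayed within 1.5 times, and of 132 counts over protein lists 111 did. Many of these were 0 as reported and stayed at 0. They include every list count called higher and the counts called lower of every class but H/ACA. The 21 list counts that moved were all counts called lower. No paired analysis was possible because each group has 1 library. For the same reason no library was left out. TPM keeps no depth, so the number of reads behind a value is unknown, as is the division of reads among copies and overlapping genes.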

Other observations

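Some clone-named short records had high single values in shETV4 cells. Gm24407, an snRNA record, was at 283.52 TPM in shETV4 cells and listed at 0 in shRFP cells. Gm26083, a scaRNA record of 193 bases, was at 70.65 TPM in shETV4 cells and listed at 0 in shRFP cells. Gm25835, a snoRNA record, was at 56.1 TPM in shETV4 cells and listed at 0 in shRFP cells.

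Several records went the other way. Gm47302, typed as a miRNA and 141 bases long, was at 97.41 TPM in shETV4 cells and 615 TPM in shRFP cells. Gm27533, typed as misc_RNA, was listed at 0 in shETV4 cells and at 154.17 TPM in shRFP cells. Gm28030, of the same type, was at 75.59 TPM in shETV4 cells and 243.57 TPM in shRFP cells. Gm27913, also typed as misc_RNA, was lower but within 2-fold, at 333.49 TPM in shETV4 cells and 486.64 TPM in shRFP cells. By contrast Gm24270, a miRNA record of 57 bases, was higher with shETV4, at 715.28 TPM in shETV4 cells and 203.14 TPM in shRFP cells. These values rest on 1 library per group and were picked after they were seen.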
